A study of Danio rerio with 6 samples.

Results

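Hox genes encode homeodomain transcription factors that give cells their position along the head-to-tail axis of the body. The genes described here are the entries of a zebrafish tumour count table whose symbols begin with hox, a cluster letter from a to d, and a number. They were found by symbol and not by their values, and they numbered 48 of the 14781 symbols in the table. RefSeq lists 49 protein-coding zebrafish genes of this form, all 48 were matched there, and the remaining one, hoxc11b, was not analysed here. The libraries came from zebrafish neuroblastomas, which arise from developing sympathetic and adrenal-type cells. One group of 3 libraries came from fish overexpressing MYCN with a knockout of gas7 (knockout), and the other 3 came from fish overexpressing MYCN without that knockout (MYCN-only). MYCN overexpression is thus shared by all 6 libraries. The promoter of the transgene, the gas7 allele, the strain, the age of the fish and any pooling were not stated in the sources used here. Nothing in the labels says that the libraries of a group came from separate fish, and the p-values therefore rest on a spread among samples that may be technical.

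Hox genes lie in clusters, and the number in the symbol, the paralogue group, follows the order within a cluster. Genes with low numbers act from the hindbrain backwards, genes with middle numbers act in the trunk, and genes with high numbers act in the hind trunk, the tail and the fins. Zebrafish carry extra clusters from a genome duplication, and the final a or b of a symbol names the copy. Sympathetic neurons and chromaffin cells derive from trunk neural crest, and human HOXC9 is known to promote differentiation of neuroblastoma cells in culture. Here groups 1 to 4 are called anterior (14 genes), groups 5 to 8 central (12 genes) and groups 9 to 13 posterior (22 genes).

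Total counts ran from 12054844 to 33305326 a library, and every knockout library was deeper than every MYCN-only library, so genes with few reads are read here in CPM, counts scaled to a common library size with TMM factors. A count of 0 allows a level of up to 0.0970 to 0.267 CPM, taken as 3 counts in a library, and this limit covers counting error only. The label names gas7 without a copy, and of the targeted gene's copies only gas7a was analysed here, at 14.8, 13.9 and 9.96 CPM in knockout libraries 1 to 3 and 23.003, 9.68 and 32.7 CPM in MYCN-only libraries 1 to 3. These overlap, and a transcript with a small mutation can still be counted, so they do not check the genotype labels. The labelled tissue was checked with 19 markers of sympathetic and chromaffin cells. Of these, 18 were in the table, and their summed level was 5651 to 13458 CPM in knockout and 7368 to 9441 CPM in MYCN-only libraries. The gene phox2ba was the one marker at 0 in all MYCN-only libraries. Knockout libraries 2 and 3 stood apart from the other libraries by ovary and oocyte transcripts. The 15 genes of that list, of which h1m was at 0 throughout, summed to 41.4, 5016 and 6270.3 CPM in knockout libraries 1, 2 and 3 and to 18.8 to 28.4 CPM in MYCN-only libraries. In bulk tissue, fewer cells of a type and less RNA per cell cannot be told apart.

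In all 6 libraries hox reads were concentrated in paralogue groups 3 to 9, the groups of the neck and trunk, and were few in group 1 and in groups 10 to 13. Group 2, mainly hoxb2a, took 0.752 to 4.73% of hox reads. The 48 genes together summed to 779.6, 578 and 566 CPM in the knockout libraries, in the order 1 to 3. They summed to 1216, 784 and 900.4 CPM in the MYCN-only libraries, in the same order. Every MYCN-only library stood above every knockout library, although MYCN-only library 2 lay just above knockout library 1. The ratio of the means was 1.51, higher in MYCN-only.

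Anterior genes took 29.7, 46.2 and 31.2% of all hox reads in the knockout libraries and 34.98, 44.3 and 43.9% in the MYCN-only libraries. Central genes took 60.7, 47.4 and 59.9% and 55.97, 51.9 and 52.2%, and posterior genes 9.58, 6.42 and 8.85% and 9.06, 3.73 and 3.92%. These are shares of reads, in which a longer transcript weighs more, so they compare libraries and not the levels of genes with each other. In shares the genotypes overlapped for all 3 classes, and the spread within each genotype was several percentage points wide. For the posterior class it ran, beyond counting error, in MYCN-only from 3.73% (exact 95% interval 3.34 to 4.15%) in library 2 to 9.06% (exact 95% interval 8.66 to 9.46%) in library 1.

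**Figure D1:**
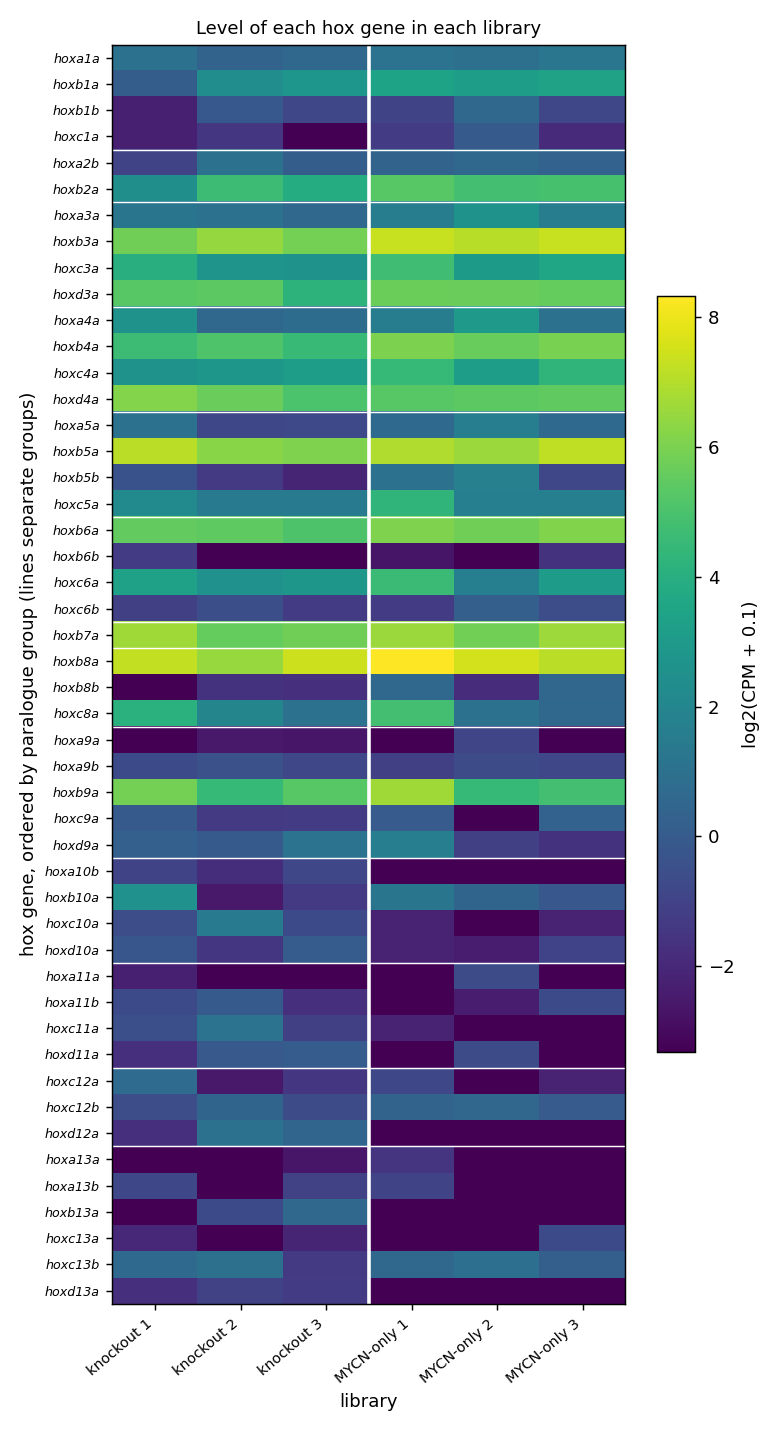
Level of each of the 48 hox genes (rows, ordered by paralogue group, with white lines between groups) in each of the 6 libraries (columns), as log2(CPM + 0.1) in colour. The brightest rows lie in groups 2 to 9, and most genes of groups 10 to 13 are dark in the MYCN-only libraries.

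**Figure D2:**
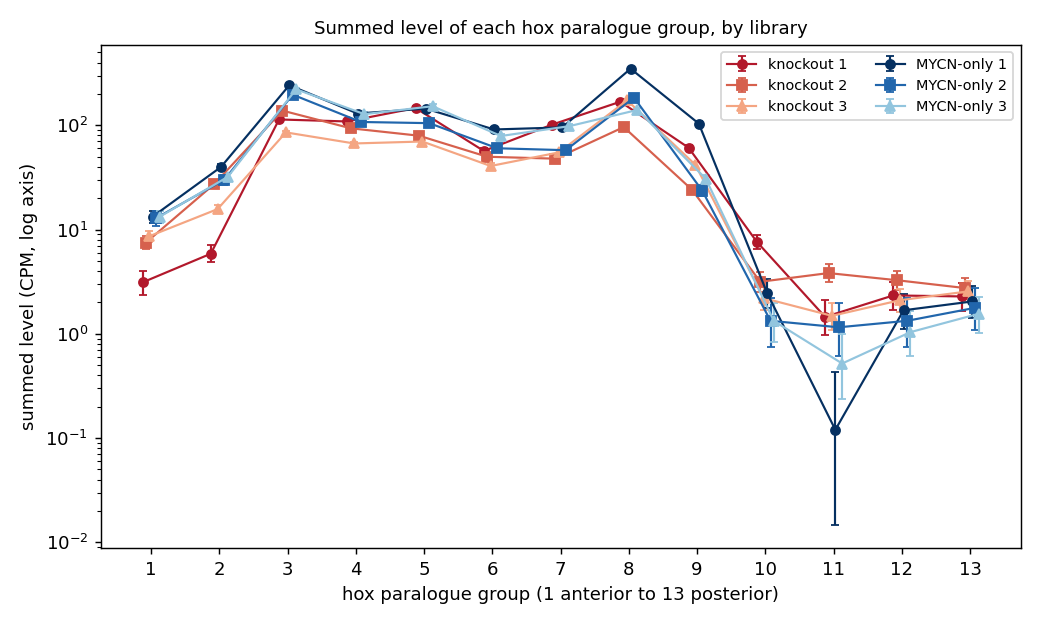
Summed CPM of each paralogue group (x axis, 1 to 13; y axis logarithmic) in each library, with exact 95% Poisson intervals that cover counting error only. The 3 MYCN-only lines lie above the 3 knockout lines in groups 1, 2, 3 and 6 and below them in groups 11, 12 and 13, and the genotypes overlap in the other groups.

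Anterior hox genes were lower in knockout than in MYCN-only tumours. The 14 anterior genes summed to 232, 267 and 177 CPM in knockout libraries 1, 2 and 3 and to 425, 348 and 395 CPM in the MYCN-only libraries, without overlap, and the MYCN-only mean was 1.73 times the knockout mean. Of 12 anterior genes tested, 11 had negative log2 fold changes (median -0.89), and 7 (58.3%) had all their knockout values under the lowest MYCN-only value. Over all genes tested the median log2 fold change was 0.04, 47.6% had a negative value, and 12.5% were lower without overlap. In edgeR's quasi-likelihood test 0 of the 28 hox genes tested passed an adjusted p under 0.05, as did 0% of all 12821 genes tested.

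The group 1 gene hoxb1a, which gives the facial-nerve segment of the hindbrain its identity, had levels of 0.986, 5.199 and 6.83 CPM in the knockout libraries, in the order 1 to 3, and 10.6, 8.71 and 10.3 CPM in the MYCN-only libraries. All 3 knockout libraries lay below the MYCN-only range, knockout library 1 furthest (log2 fold change -1.17, SE 0.67; edgeR adjusted p = 0.3804). Its neighbour hoxb2a, a hindbrain gene of group 2, was likewise lowest in knockout library 1 and lower without overlap, at 5.45, 25.3 and 14.8 against 38.7, 28.7 and 30.9 CPM (-1.10, SE 0.54; edgeR adjusted p = 0.316). The second pharyngeal arch selector hoxa2b also had its lowest level in knockout library 1, but its libraries overlapped (0.415, 1.97 and 0.9704 against 1.201, 1.42 and 1.15 CPM).

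In group 3 the difference was more even across libraries. The gene hoxb3a, expressed in the caudal hindbrain and pharyngeal region of the embryo, stood at 55.9, 87.9 and 59.4 CPM in knockout and 160.2, 133 and 160.4 CPM in MYCN-only libraries 1, 2 and 3. The means were 67.8 ± 17.6 and 151 ± 15.98 CPM (SD, n = 3), and the log2 fold change of -1.15 (SE 0.26) had the smallest p of all hox genes tested. It did not pass in edgeR (adjusted p = 0.174), but it did in DESeq2 (adjusted p = 0.00411). It also passed in edgeR when knockout library 1 was left out (adjusted p = 0.0409). Also lower without overlap were hoxa3a (2.18, 1.97 and 1.42 against 2.82, 6.13 and 2.999 CPM) and hoxd3a (39.7, 42.04 and 18.6 against 52.4, 50.02 and 46.7 CPM). The remaining group 3 gene, hoxc3a, overlapped, at 16.04, 6.42 and 6.08 against 26.97, 8.08 and 11.6 CPM, with the highest value in MYCN-only library 1.

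Group 4 divided by cluster. The gene hoxb4a, known in mammals for its part in blood stem cell expansion, was read at 25.5, 34.9 and 23.9 CPM in knockout and 65.6, 49.5 and 62.98 CPM in MYCN-only libraries, means of 28.1 ± 5.94 and 59.4 ± 8.66 CPM (SD, n = 3). Its log2 fold change was -1.07 (SE 0.25), with an adjusted p of 0.174 in edgeR and 0.00706 in DESeq2. The gene hoxc4a was lower without overlap as well, at 6.23, 7.17 and 8.86 against 21.98, 8.97 and 19.3 CPM (-1.17, SE 0.41). In contrast, hoxd4a was read at 71.001, 50.2 and 32.6 against 39.2, 41.4 and 43.8 CPM, the only tested anterior gene with a positive log2 fold change (0.31, SE 0.31). Its knockout libraries lay on both sides of a narrow MYCN-only range. The remaining tested anterior gene, hoxa1a of group 1, overlapped (1.92, 1.23 and 1.36 against 2.04, 1.87 and 2.31 CPM), and the low-count genes hoxb1b and hoxc1a reached at most 1.42 CPM in a library. The gene hoxa4a overlapped and spread over 4 times within each genotype, at 6.18, 1.37 and 1.62 against 2.94, 7.82 and 1.903 CPM.

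These values carry an annotation limit. In RefSeq the long hoxb3a gene spans hoxb4a, hoxb5a and hoxb6a, hoxd3a spans hoxd4a, hoxa3a spans hoxa4a and hoxa5a, hoxc3a spans hoxc4a, hoxc5a, hoxc6a, hoxc8a and hoxc9a, and hoxb1b spans hoxb5b and hoxb6b. That puts 18 of the 48 genes in an overlapping pair. How reads shared by such genes were assigned, and whether strand was used, is not given in the sources used here. These spans are those of RefSeq assembly GRCz12tu, while the build of the counts was danRer10, so the gene models counted may differ. The levels of overlapping partners are therefore not taken as independent measurements. Neither hoxb1a nor hoxb2a is in such a pair.

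Central hox genes stood lower in knockout on average, but the libraries of most single genes overlapped. All 10 central genes tested had negative log2 fold changes (median -0.63), and 1 of them was lower without overlap. The 12 central genes summed to 473, 274 and 339 CPM in knockout and 681, 407 and 470.0 CPM in MYCN-only libraries, and knockout library 1 reached into the MYCN-only range. The non-overlapping gene was hoxb6a, of a group that acts in the anterior trunk, at 46.1, 43.5 and 33.3 against 66.6, 55.97 and 69.7 CPM (-0.64, SE 0.23; edgeR adjusted p = 0.218).

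The gene hoxb5a, whose mouse counterpart acts in enteric neural crest, was read at 139, 76.1 and 66.7 CPM in knockout and 122, 95.4 and 147 CPM in MYCN-only libraries. Knockout library 1 was thus within the MYCN-only range, and knockout libraries 2 and 3 lay below it. Its cluster neighbour hoxb7a was read at 102, 47.9 and 54.99 against 95.5, 57.7 and 98.1 CPM, with knockout library 1 above the MYCN-only range and knockout libraries 2 and 3 below it. The duplicate copy hoxb5b had few reads, with counts of 13, 8 and 4 in knockout and 32, 37 and 8 in MYCN-only libraries. It had the most negative log2 fold change of the tested hox genes (-2.36, SE 0.95), but knockout library 1 stood above MYCN-only library 3 in CPM. The related hoxa5a (1.92, 0.483 and 0.485 against 1.501, 3.02 and 1.499 CPM) and the duplicate hoxc6b (0.363, 0.594 and 0.323 against 0.3003, 1.07 and 0.577 CPM) overlapped. The untested duplicates hoxb6b and hoxb8b had counts of 6, 0 and 0 against 1, 0 and 4 and of 0, 6 and 6 against 23, 2 and 23.

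MYCN-only library 1 stood out by central genes of cluster ca and by hoxb8a. Of the other central genes, hoxb5a, hoxb6a and hoxb7a had their highest MYCN-only level in library 3. The gene hoxc8a, which patterns the trunk at forelimb level in mouse, was read at 28.4, 1.95 and 1.44 CPM in MYCN-only libraries 1, 2 and 3, a spread of 19.7 times, and at 17.1, 3.83 and 2.01 CPM in knockout libraries. One library of each genotype was high, MYCN-only 1 and knockout 1, and the other 4 lay between 1.44 and 3.83 CPM. Likewise hoxc6a (24.3, 3.198 and 8.48 CPM) and hoxc5a (19.5, 3.198 and 3.11 CPM) were several times higher in MYCN-only library 1 than in MYCN-only libraries 2 and 3. In knockout they stood at 10.02, 5.83 and 7.12 and at 4.67, 2.64 and 2.65 CPM. The gene hoxb8a, which had the highest mean CPM of the hox genes but stood below hoxb3a and hoxb5a in MYCN-only library 3, was read at 319.6, 182 and 138 CPM in MYCN-only and 151, 92.2 and 172 CPM in knockout libraries (-0.62, SE 0.40; edgeR adjusted p = 0.428).

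Among posterior hox genes only hoxb9a was well read, and the other genes of group 9 were sparse like those of groups 10 to 13. The gene hoxb9a stood at 58.5, 22.2 and 38.9 CPM in knockout and 99.5, 22.3 and 29.01 CPM in MYCN-only libraries 1, 2 and 3. Library 1 was the highest of each genotype, the genotypes overlapped, and without MYCN-only library 1 the log2 fold change of -0.33 (SE 0.65) turned to 0.63. The related hoxc9a had counts of 17, 8 and 10 in knockout and 15, 0 and 20 in MYCN-only libraries. The paralogue hoxd9a had counts of 21, 24 and 64 and 51, 4 and 4, with library 1 again the highest of the MYCN-only libraries. The low-count copies hoxa9a and hoxa9b had counts of 0, 2 and 2 against 0, 5 and 0 and of 10, 17 and 14 against 6, 6 and 8.

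Groups 10 to 13 hold 17 genes, and they were read at higher levels in knockout than in MYCN-only libraries. Their sum was 13.7, 12.998 and 8.35 CPM in knockout libraries 1, 2 and 3 and 6.31, 5.597 and 4.44 CPM in the MYCN-only libraries, from 264, 350 and 258 and 105, 63 and 77 counts. The sum did not overlap between genotypes, and the knockout mean was 2.14 times the MYCN-only mean. As a share of hox reads it was 1.76, 2.25 and 1.47% against 0.518, 0.714 and 0.493%. This division at group 10 was made after the values were seen and has no test.

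The 2 genes of cluster cb in these groups, hoxc12b and hoxc13b, overlapped between genotypes: their sum was 2.02, 3.12 and 0.841 CPM in knockout and 2.58, 3.11 and 1.96 CPM in MYCN-only libraries. The other 15 genes summed to 11.7, 9.88 and 7.504 against 3.72, 2.49 and 2.48 CPM. Setting cluster cb apart was also done after the values were seen and has no test. Of the 22 posterior genes 6 passed the low-count filter (hoxb9a, hoxc9a, hoxd9a, hoxb10a, hoxc12b and hoxc13b), so the tested posterior genes (median log2 fold change -0.27) leave out nearly all genes of groups 10 to 13. With no filter, the median over all 22 was 0.73. Setting the 4 genes at 0 in MYCN-only to the bounds given below, which all lie above that median, leaves it at 0.73 by construction.

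The genes behind the sum differed from one knockout library to the next. In knockout library 1 the highest were hoxb10a, read at 5.86, 0.0743 and 0.291 CPM in knockout and 2.22, 1.24 and 0.807 CPM in MYCN-only libraries, and hoxc12a, with counts of 30, 2 and 8 and 8, 0 and 2. The log2 fold change of hoxb10a (0.53, SE 1.42) rested on that library and was -2.90 without it. In knockout library 2 the highest levels were those of hoxc10a (0.571, 2.64 and 0.518 against 0.1201, 0 and 0.115 CPM) and hoxc11a (0.623, 2.08 and 0.356 against 0.1201, 0 and 0 CPM), with hoxd12a and hoxc13b close behind, and in knockout library 3 those of hoxb13a and hoxd12a. Group 10 genes suppress ribs and group 11 genes act in kidney formation in mouse.

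Several genes of the tail and fins were read only in knockout libraries. The gene hoxd12a is of the posterior end of cluster da. Its counts were 4, 52 and 40 in knockout and 0, 0 and 0 in MYCN-only libraries. With each genotype pooled, its knockout level was 18.8 times a limit of 3 counts in the pooled MYCN-only libraries. This bound takes the pooled knockout level as it stands, without its counting error or the spread among libraries. On the same terms hoxd13a, which acts in fin development, with counts of 4, 10 and 10, stood at 4.69 times that limit. The corresponding bound was 5.28-fold for hoxa10b (8, 5 and 14 counts) and 11-fold for hoxb13a (0, 14 and 42 counts), a gene of the tail end of the body. These 4 genes stood at 0 in all MYCN-only libraries. They were 8.33% of the hox genes, while 1.45% of all symbols were at 0 in all MYCN-only libraries and had a count in a knockout library. All 4 hox genes were under the low-count filter, which kept 28 of the 48 hox genes but 12821 of the 14781 symbols. The shares therefore do not rest on equally sparse genes. The knockout libraries were the deeper ones, and the part of depth in these zeros was not tested. Both hoxd12a and hoxb13a had most of their counts in knockout libraries 2 and 3, which also held the ovary transcripts. The summed level of groups 10 to 13 was highest in knockout library 1, where the ovary list stood at 41.4 CPM. That library's sum held 5.86 CPM of hoxb10a. The genes hoxb10a, hoxc12b and hoxc13b were then left out after their values were seen, and this choice has no test. The remaining 14 genes summed to 5.81, 9.805 and 7.21 CPM in knockout libraries 1, 2 and 3. Knockout library 1 was thus the lowest knockout library in that smaller sum. In the MYCN-only libraries these 14 genes summed to at most 1.67 CPM (library 3). The part of ovary tissue in these reads was not tested. The gene hoxd11a was read at 0.208, 0.854 and 0.938 against 0, 0.533 and 0 CPM and overlapped, as did hoxd10a (0.779, 0.25997 and 0.938 against 0.1201, 0.0888 and 0.404 CPM) and hoxa11b (0.519, 0.891 and 0.194 against 0, 0.0888 and 0.519 CPM). The remaining 4, hoxa11a, hoxa13a, hoxa13b and hoxc13a, had 12 counts or fewer in every library.

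Of the 20 hox genes under the filter, 5 were higher in every knockout library than in any MYCN-only library (hoxa10b, hoxc10a, hoxc11a, hoxd12a and hoxd13a) and 0 were lower without overlap. Among the 1452 symbols with a count that were left out by the filter, 5.72% were higher and 7.02% lower without overlap. In edgeR with no filter, 6 of the 48 hox genes (12.5%) were higher at an unadjusted p under 0.05, all of groups 10 to 13, and 5 (10.4%) were lower, all of groups 3 to 6. The shares over all 14273 symbols were 11.1% higher and 7.1% lower, so these hox counts lie near the background, and 0 of the 48 passed after adjustment.

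**Figure D3:**
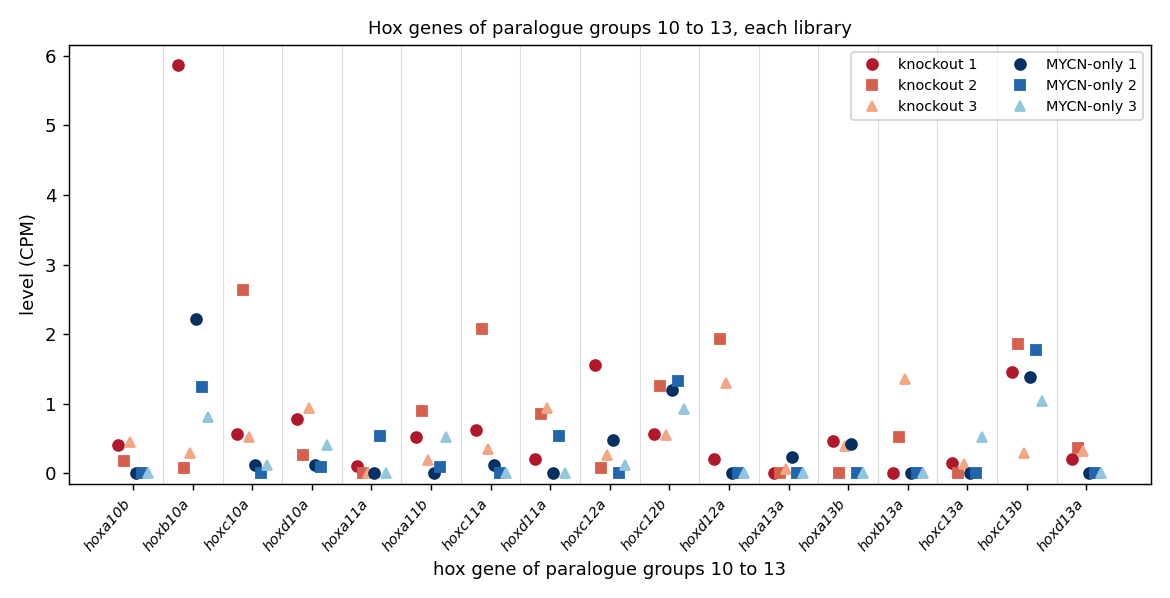
Level in CPM (y axis) of the 17 genes of paralogue groups 10 to 13 (x axis) in each library. The high points belong to different knockout libraries from gene to gene, such as hoxb10a in knockout library 1 (5.86 CPM) and hoxc10a in knockout library 2 (2.64 CPM).

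Over the 28 tested hox genes, 25 (89.3%) had negative log2 fold changes, with a median of -0.57. Lower without overlap were 8 (28.6%, against 12.5% of all genes tested), and 0 were higher without overlap (against 11.5%). These counts leave out the 20 hox genes under the filter, 16 of them posterior, of which 5 were higher without overlap. With no filter, 33 of the 48 hox genes had negative log2 fold changes. At an unadjusted p under 0.05 edgeR had 5 lower (17.9%, against 7.57% of all genes tested), namely hoxb3a, hoxb4a, hoxc4a, hoxb5b and hoxb6a, and 0 higher (against 11.5%). Of the 2447 genes with such a p, 971 were lower; with upper-quartile scaling, which moved the median of all genes from 0.04 to -0.14, the split was 1557 lower of 2585, and the hox median was -0.73. DESeq2 called hoxb3a and hoxb4a as lower, 2 of 28 (7.14%, against 4.02% of all genes), and limma-voom called 0. In RefSeq the long hoxb3a gene spans hoxb4a and hoxb6a, so these genes are not taken as independent measurements in such shares. Without knockout library 1 edgeR called hoxb3a among 32 hox genes tested as lower, where 3.51% of all genes tested were called lower. With knockout libraries 2 and 3 left out, 0 were called, and the median log2 fold change of anterior genes was -1.32.

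**Figure D4:**
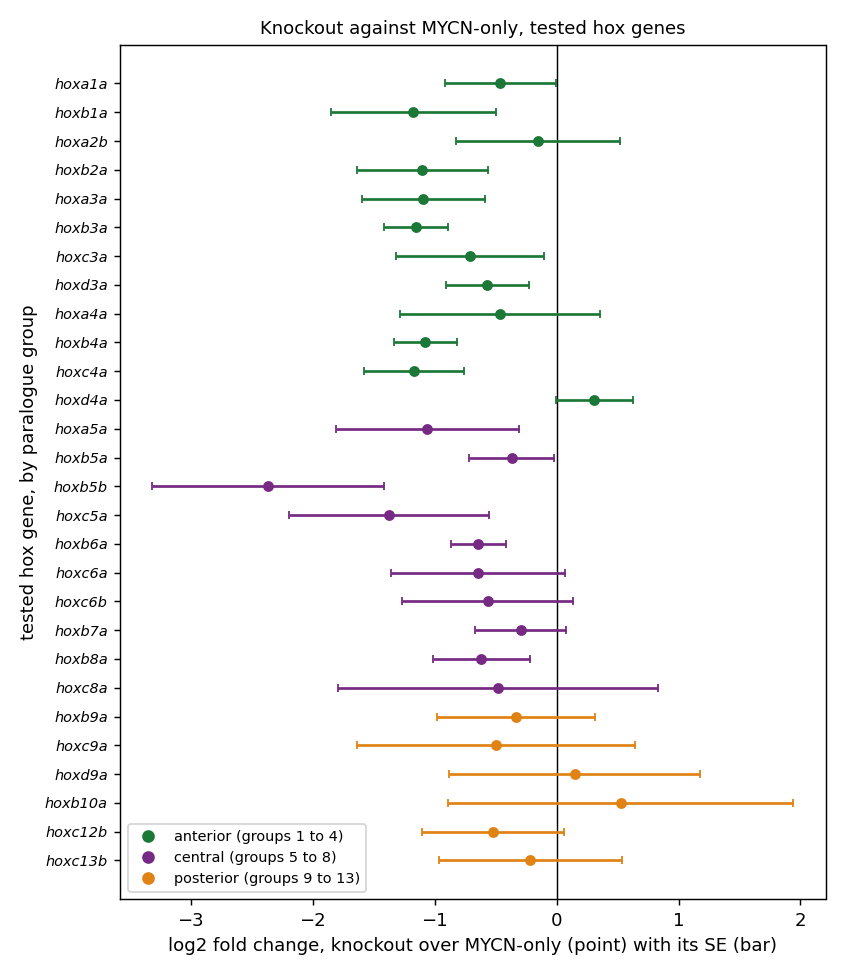
Log2 fold change of knockout over MYCN-only (x axis, points) with the SE implied by edgeR's F test (bars) for the 28 tested hox genes (y axis, by paralogue group, coloured by class). Points of anterior and central genes lie left of 0 except hoxd4a (0.31), and the widest bars belong to hoxb10a (SE 1.42) and hoxc8a (SE 1.31).

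By cluster, ba carried most of the reads in every library. Its share of all hox reads was 75.7, 75.5 and 83.3% in knockout and 80.6, 80.9 and 83.001% in MYCN-only libraries, and its summed level was 590.4, 436 and 472 against 980.2, 634 and 747 CPM, without overlap. Cluster da stood nearly level among MYCN-only libraries (94.8, 92.4 and 91.2 CPM) and spread in knockout (113, 96.6 and 56.8 CPM), so that its mean did not differ beyond the spread. Cluster ca was high in MYCN-only library 1 (123, 26.3 and 46.02 CPM) and overlapped with knockout (57.9, 31.2 and 28.3 CPM). The duplicate cluster bb was sparse but lower in all 3 knockout libraries, at 1.09, 1.34 and 0.776 against 3.78, 4.89 and 2.48 CPM, a ratio of means of 3.48. Cluster ab, with 5 genes of groups 2, 9, 10, 11 and 13, stood slightly higher in all 3 knockout libraries, at 2.34, 3.68 and 2.46 against 1.98, 2.04 and 2.13 CPM.

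**Figure D5:**
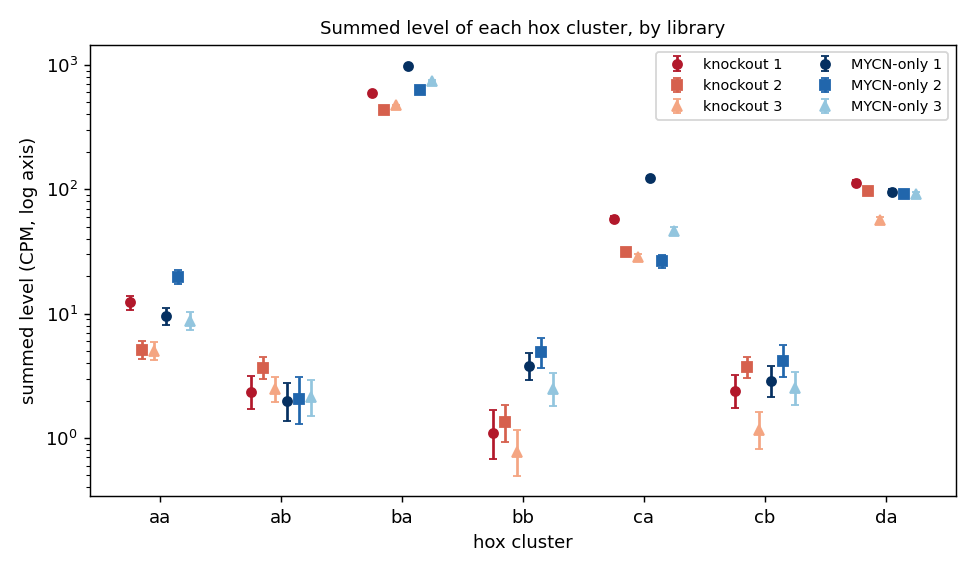
Summed CPM of each of the 7 hox clusters (x axis; y axis logarithmic) in each library, with exact 95% Poisson intervals that cover counting error only. In clusters ba and bb the 3 knockout points lie below the 3 MYCN-only points, in cluster ab they lie above them, and in the other clusters the genotypes overlap.

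For 10 hox genes both duplicate copies were in the table. In the b clusters the a copy took nearly all reads of a pair: at least 96.7% for hoxb5, 99.3% for hoxb6 and 99.0% for hoxb8 in every library, and 86.0 to 96.2% for hoxb1. For hoxc6 the a copy took 75.0% (exact 95% interval 60.4 to 86.4%) in MYCN-only library 2 and 90.8 to 98.8% in the other libraries. For hoxc13 the b copy took the larger part, with 28, 50 and 9 counts in knockout and 23, 20 and 18 in MYCN-only libraries against 3, 0 and 4 and 0, 0 and 9 for the a copy. For hoxc12 the a copy took 73.2% (exact 95% interval 57.1 to 85.8%) in knockout library 1 and 0 to 32.0% in the other libraries. The copies are similar in sequence, and the treatment of reads that match both is not given in the sources used here.

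Genes next to the clusters had no common direction. Gene order came from RefSeq (assembly GRCz12tu, used for names, order and spans only). For each of the 7 clusters the 3 nearest other symbols of the table on either side were taken, 42 in all. Of 40 tested, 23 had positive and 17 negative log2 fold changes (median 0.07), an unadjusted p under 0.05 went with a higher level for 5 and a lower level for 3, and 0 passed in edgeR after adjustment. Over all genes these shares were 11.5% higher and 7.57% lower, so the neighbours lay near the background. Beside cluster ba, ube2z, a ubiquitin-conjugating enzyme gene, stood at 63.7, 93.4 and 88.5 CPM in the knockout libraries against 60.4, 54.4 and 53.2 CPM, without overlap and opposite in direction to the summed level of that cluster. Inside that cluster, the microRNA gene symbol mir10c, named after its values were seen, was read at 1.35, 3.64 and 2.49 against 7.09, 5.42 and 7.04 CPM, lower without overlap as hoxb3a and hoxb4a were (-1.37, SE 0.48; edgeR adjusted p = 0.216). Whether it shares reads with a hox gene around it was not examined, so it may not be a separate measurement.

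Genes of the proteins that bind DNA with Hox proteins stood mostly lower in knockout as well. Pbx and Meis proteins are homeodomain cofactors of the TALE class that raise the affinity and selectivity of Hox proteins for their sites. Of 13 measured TALE genes, 12 had negative log2 fold changes (median -0.55), 5 were lower without overlap (12.5% of all genes tested were), and 5 were lower at an unadjusted p under 0.05 (7.57% of all genes). None passed in edgeR, and DESeq2 called 3 as lower (meis1a, meis2a and pbx1b), against 4.02% of all genes. The gene meis1a was read at 6.23, 4.16 and 7.699 CPM in knockout and 27.5, 33.5 and 13.6 CPM in MYCN-only libraries (-2.04, SE 0.44; edgeR adjusted p = 0.174, DESeq2 adjusted p = 0.000935). Also lower without overlap were meis2a (26.8, 22.1 and 12.8 against 33.03, 58.6 and 60.9 CPM), pbx1b (3.22, 6.499 and 3.53 against 10.6, 9.24 and 11.2 CPM), pbx3b (30.99, 31.9 and 30.1 against 47.3, 50.9 and 38.3 CPM) and meis2b (3.01, 2.79 and 1.07 against 5.11, 6.22 and 3.46 CPM). The gene pbx4, the main Pbx gene of the early zebrafish embryo, was low in knockout library 1 alone (23.6, 103 and 74.4 against 76.6, 78.3 and 72.3 CPM). That library was also the lowest for hoxb1a and hoxb2a, and likewise for the methyltransferase gene ezh2 given below. Any link between these genes was not tested.

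Regulators of hox expression had no common direction. Among 17 listed genes that were measured, 12 were tested, 5 with positive and 7 with negative log2 fold changes (median -0.02). Retinoic acid switches on anterior hox genes through its receptors, and the receptor genes raraa (25.2, 33.4 and 31.2 against 37.5, 55.8 and 66.4 CPM) and rarga (39.3, 40.3 and 26.8 against 49.4, 62.4 and 54.96 CPM) were lower in all 3 knockout libraries without passing (edgeR adjusted p = 0.215 and 0.241). The gene rargb stood at 0.415, 0.706 and 0.129 against 0.961, 2.22 and 0.346 CPM and overlapped. The gene cyp26a1, which encodes an enzyme that breaks down retinoic acid, had levels of 0.104, 12.4 and 8.93 CPM in the knockout libraries against 0.841, 1.78 and 0.231 CPM. It was thus high in the 2 libraries with ovary transcripts, and its log2 fold change of 2.94 turned to -3.06 with those left out. The caudal-type genes cdx4 and cdx1b, activators of posterior hox genes, had counts of 2, 14 and 24 against 12, 0 and 2 and of 2, 0 and 0 against 65, 2 and 28. The latter also marks intestine.

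Chromatin regulators that hold hox genes silent or active were likewise mixed, with 16 of 25 measured genes at positive log2 fold changes (median 0.14). The Polycomb genes bmi1b (11.8, 21.2 and 32.5 against 6.97, 4.09 and 4.61 CPM) and bmi1a (40.6, 55.4 and 84.1 against 33.7, 22.8 and 24.5 CPM) were higher in all 3 knockout libraries. The same held for rbbp4 (68.04, 122 and 131 against 37.9, 29.6 and 53.4 CPM) and rbb4l (58.96, 67.8 and 93.8 against 48.8, 41.04 and 58.8 CPM), which encode histone-binding subunits. None passed in edgeR (adjusted p = 0.174, 0.195, 0.182 and 0.298), while DESeq2 called the first 3 as higher, against 6.29% of all genes tested. Of the 25 genes, these 4 were higher without overlap and 2 were lower, against 11.5% and 12.5% of all genes tested. For rbb4l, knockout library 1 lay just above MYCN-only library 3. All 4 were highest in knockout libraries 2 and 3, which held the ovary transcripts, and the part of ovary tissue was not tested. The methyltransferase gene ezh2 was read at 22.8, 116 and 110.4 against 54.95, 38.2 and 57.6 CPM, high in knockout libraries 2 and 3 and low in knockout library 1.

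Other genes of body position also differed between libraries. Of 25 measured, 11 were tested, 4 with positive and 7 with negative log2 fold changes (median -0.46), and 0 passed in edgeR, while DESeq2 called 4, 1 of them higher and 3 lower, against 6.29% and 4.02% of all genes. The head gene otx1b was read at 0.363, 40.3 and 49.4 CPM in the knockout libraries against 0.3604, 0.533 and 1.27 CPM, and was high where the ovary list was high. Its log2 fold change of 5.36 turned to -0.98 with knockout libraries 2 and 3 left out. Lower in all knockout libraries were pitx1, a hindlimb and pelvic fin gene (1.14, 0.891 and 0.679 against 1.86, 28.2 and 3.46 CPM) and emx2, a gene of forebrain and urogenital tissue (6.695, 2.897 and 3.43 against 10.8, 11.2 and 9.52 CPM). MYCN-only library 2 held by far the highest pitx1 value.

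Marker lists of neighbouring tissues differed between libraries. The summed kidney, intestine, pancreas, spinal cord and blood lists stood lower in all 3 knockout libraries, while the interrenal, muscle, skin and fibroblast lists overlapped. Of 14 measured kidney genes 11 had negative log2 fold changes, and no measured kidney gene was at 0 throughout. The kidney list summed to 855, 442 and 560.0 against 1772, 2311 and 1197 CPM. The 8 measured intestinal genes summed to 80.3, 22.8 and 36.4 against 533, 783 and 724 CPM, and 6 of 6 tested had negative log2 fold changes. The 10 pancreas genes summed to 48.6, 221 and 86.6 against 381, 1166 and 1238 CPM. Muscle genes (8 measured) were highest in MYCN-only library 2, at 602, 206 and 291 against 693, 4150.3 and 151 CPM, and so were the 6 skin genes, at 219, 755 and 154 against 512, 3281 and 357 CPM. The 9 fibroblast and mural genes, of which pdgfrb was at 0 throughout, summed to 197, 860.4 and 259 against 1177, 2442 and 743 CPM. The 9 interrenal genes summed to 3217, 630.4 and 728 against 1302, 2442 and 2110.3 CPM, and were high in knockout library 1. The 5 spinal cord and glia genes stood at 4.52, 5.09 and 6.05 against 21.1, 39.0 and 10.5 CPM, and the 4 blood genes at 528, 654 and 404 against 1088, 1222 and 720.4 CPM. The blood genes had no common direction, with 2 positive and 2 negative log2 fold changes (median 0.01). The sympathetic and chromaffin list was mixed: of 17 genes tested, 10 had negative and 7 positive log2 fold changes (median -0.15). Without overlap 4 were lower and 0 higher, against 12.5% and 11.5% of all genes tested. In that list phox2a, a transcription factor of noradrenergic identity, stood lower in all knockout libraries (129, 188 and 192 against 507, 239 and 376 CPM; edgeR adjusted p = 0.197), while hand2 overlapped (699.6, 302 and 447 against 587, 423 and 622 CPM). The part of these tissues in the hox levels was not tested.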

How the data were processed

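RNA was sequenced from zebrafish tumours, 3 knockout and 3 MYCN-only libraries. The authors deposited 1 table of raw read counts per gene symbol for the whole series. Per the submitters' processing notes, the build was danRer10 and the tools named, with no role given, were featureCounts 1.4.6 of Subread, Bowtie2 2.2.6 and TopHat2 2.0.14. The sources used here do not give the strand setting, the annotation or the treatment of multiply mapped reads. Genotypes were taken from the labels. The 48 hox genes and all gene lists were chosen with earlier results of these data known.

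Of 14781 symbols, 508 had no counts. Symbols kept by filterByExpr (edgeR 4.0.16, R 4.3.3; 12821 symbols) were scaled by TMM and compared by edgeR's quasi-likelihood test with Benjamini-Hochberg adjustment over all of them (threshold 0.05), on all 6 libraries with genotype alone; the biological coefficient of variation was 52.5%. The SE of an edgeR log2 fold change is its absolute value divided by the square root of the F statistic. CPM uses TMM-scaled totals. Intervals are exact (Clopper-Pearson for shares, Poisson for sums, 95%) and cover counting error only, since reads are not independent molecules. Libraries differed from each other by more than sampling noise. DESeq2 1.42.0, limma 3.58.1 (voom), other scalings and filters, a replicate block and left-out libraries were alternatives. The scripts were checked on simulated counts. Genes named were, by rule, the 12 hox genes with the most CPM and the 10 with the smallest p, and 4 genes of each companion list, of which 1 is not reported here; other hox genes, meis2b, pbx4, cdx4, cdx1b, ezh2, ube2z, mir10c, phox2a and hand2 were named after their values were seen. No hox sequence was used here.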

Additional observations from a re-analysis of the deposited data

How the results depend on the processing

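The call of 0 genes in edgeR depended on the tool and on knockout library 1. DESeq2 called 1323 genes, 2 of them hox genes, limma-voom called 1 and edgeR with knockout libraries 2 and 3 both left out called 9. With 1 library left out at a time, the count ran from 0 to 1923 genes and from 0 to 2 hox genes, the highest without knockout library 1, where the hox genes called were hoxb3a and hoxd12a, the latter at 0 in all MYCN-only libraries and tested only through the knockout ones. The median log2 fold change of hox genes was negative over the hox genes tested in each fit, 29 to 38 with 1 library left out (leave-one-out range -0.72 to -0.21; -0.32 over 33 without both knockout libraries 2 and 3), and for anterior genes (-0.997 to -0.67; -1.32). The posterior median had no stable sign: it was -0.45 with upper-quartile scaling, 0.73 with no filter, 0.27 without knockout libraries 2 and 3, and -0.35 to 1.26 with 1 library left out, since different genes then pass the filter.

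Signs turned for some genes. Without knockout libraries 2 and 3 log2 fold changes were 0.20 for hoxb5a, 0.28 for hoxb7a, 0.22 for hoxb9a, 0.045 for hoxc3a, 0.58 for hoxa4a, 0.072 for hoxc13b, -3.06 for cyp26a1 and -0.98 for otx1b. With 1 library left out they ran from -0.84 to 0.23 for hoxa2b, -2.90 to 1.09 for hoxb10a, -0.70 to 0.25 for hoxc13b, -0.71 to 0.63 for hoxb9a, -1.77 to 0.068 for hoxc5a and -1.48 to 0.35 for hoxa4a. For hoxb10a limma-voom gave -1.48. The cause was not tested. Without both libraries, knockout library 1 stands alone and is assumed to vary like the MYCN-only group.

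Deviations of same-numbered libraries correlated at -0.09, -0.15 and 0.19. With 3 libraries a genotype these values cannot exclude a pairing, and the labels do not state one. With a replicate block edgeR called 8 genes, 0 of them hox genes, and the log2 fold change of hoxb10a was -1.12. At this depth, hox genes of groups 10 to 13 with few reads give no firm fold change.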
